A study of Homo sapiens with 8 samples.

Results

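The 47 genes described here encode the machinery that copies DNA in S phase, together with *E2F1*, *E2F8* and *CLSPN*, which regulate or guard it. They were chosen by gene symbol and role, and all 47 were present among the 13842 genes of the expression table. The libraries were RNA-seq of total RNA from cultured human breast epithelial cell lines. MCF10A is a non-tumorigenic line and DCIS.COM a derivative of it that models ductal carcinoma in situ, a pre-invasive breast lesion. Each line was stably transduced with the lentiviral vector pLOC carrying *MALINC1*, a long non-coding RNA (pLOC-*MALINC1*), or with the same vector without insert (pLOC-empty), and all cells were selected with blasticidin and harvested from subconfluent plates, so that the controls carried vector and selection too. The 4 groups held 2 libraries each. MCF10A was grown with added epidermal growth factor, hydrocortisone, insulin and cholera toxin and DCIS.COM without these additions, so medium and cell line cannot be told apart. The labels do not say whether the 2 libraries of a group came from separate transductions or cultures, and the p-values below therefore measure only the spread between these libraries, which may be technical.

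During G1, the origin recognition complex, *CDC6* and *CDT1* load the ring-shaped MCM helicase onto replication origins. At the start of S phase the ring is activated by *CDC45* and the GINS complex, and polymerases then copy both strands with the help of the sliding clamp *PCNA*, the clamp loader RFC and the single-strand binding complex RPA. Transcription of many of these genes is periodic, with a peak around the start of S phase, and is controlled by E2F factors once cyclin-dependent kinases have released them from RB-family repressors. In bulk RNA, fewer cells in a given phase and less RNA of a gene per cell cannot be told apart.

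Between 20604377 and 37550457 reads per library were counted on genes, and members had between 81 and 14967 reads in a library. Levels are given as CPM, the reads of a gene scaled to the size of the library. *MALINC1* itself had 1.25 ± 0.357 CPM (SD, n = 2) in MCF10A pLOC-empty and 12.5 ± 1.05 CPM in MCF10A pLOC-*MALINC1*. The DCIS.COM groups had 1.25 ± 0.146 CPM and 21.8 ± 3.76 CPM in the same order, so both lines overexpressed the transcript as labelled. Reads of the small RNAs *RN7SL1* and *RN7SL2* made up 8.22% to 15.7% of each library, with the lowest share in replicate 2 of DCIS.COM pLOC-*MALINC1*. All 7 basal epithelial markers searched were present, with summed levels of 29168 to 39513 CPM in MCF10A and 4641 to 5073 CPM in DCIS.COM. *TP63* and *ITGA6* went against this sum. With pLOC-empty their mean levels were 4.92 and 1142 CPM in MCF10A and 56.6 and 1823 CPM in DCIS.COM. Of 6 luminal markers 5 were present, with 1281 to 1639 CPM in MCF10A and 3217 to 3476 CPM in DCIS.COM. Of the markers of other cell types, 1 of 5 fibroblast markers (*COL1A1*, 1.51 to 15.9 CPM), 1 of 4 leukocyte markers (*CD68*, 3.53 to 11.4 CPM) and 1 of 2 endothelial markers (*PECAM1*, 0.0874 to 7.21 CPM) were in the table. The basal sum was higher with pLOC-*MALINC1* than with pLOC-empty in MCF10A (38277 to 39513 CPM against 29168 to 29260 CPM) and in DCIS.COM (4798 to 5073 CPM against 4641 to 4754 CPM). In MCF10A the mean levels of all 7 basal markers were higher with pLOC-*MALINC1*, with *TP63* at 40.9 CPM against 4.92 CPM. Single basal markers went both ways in DCIS.COM. The mean levels of *KRT5*, *KRT6A* and *ITGA6* were higher with pLOC-*MALINC1*. Those of *KRT14*, *KRT17*, *TP63* and *LAMB3* were lower, with *LAMB3* at 355 CPM against 656 CPM. The luminal sum was higher with pLOC-*MALINC1* in MCF10A (1549 to 1639 CPM against 1281 to 1377 CPM) but lower in DCIS.COM (3217 to 3298 CPM against 3429 to 3476 CPM). Nearly all of this sum came from *KRT8* and *KRT18*. In MCF10A the mean level of *KRT18* was 768 CPM with pLOC-*MALINC1* against 505 CPM, while the *KRT8* libraries overlapped (786 to 845 CPM against 792 to 834 CPM). Both had lower means with pLOC-*MALINC1* in DCIS.COM. The mean levels of *GATA3* and *KRT19* were lower with pLOC-*MALINC1* in MCF10A, and those of *ESR1* and *GATA3* were higher in DCIS.COM. In MCF10A, *COL1A1* was lower with pLOC-*MALINC1* (6.61 to 7.38 CPM against 15.1 to 15.9 CPM), as was *CD68* (8.89 to 9.44 CPM against 11.2 to 11.4 CPM). In DCIS.COM, *PECAM1* was lower (0.0874 to 0.177 CPM against 6.06 to 7.21 CPM) and *CD68* higher (6.95 to 7.05 CPM against 3.53 to 3.59 CPM). The part of these markers in the results was not tested.

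The response to pLOC-*MALINC1* had opposite directions in the 2 cell lines. In MCF10A, 23 of the 47 genes were lower with pLOC-*MALINC1* and 0 were higher, at a Benjamini-Hochberg adjusted p below 0.01 in limma over all tested genes. In DCIS.COM, 29 were higher and 2 were lower. The changes were small: the median log2 fold change of the 47 genes was -0.19 in MCF10A and 0.27 in DCIS.COM, beside medians of 0.00 and 0.01 over all 13842 genes. Over all genes, 18.1% were called lower and 21.5% higher in MCF10A, and 16.4% were called higher and 16.7% lower in DCIS.COM. Among the 47 genes, no change in MCF10A exceeded 2-fold and 1 in DCIS.COM did, that of *E2F8* (5.5% and 4.53% of all genes were called with a change of that size). At an unadjusted p below 0.05, 2 genes were higher in MCF10A (*ORC6* and *RFC3*), and limma-voom on the recovered reads called 1.

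A set of 15 genes was lower in MCF10A but higher in DCIS.COM, which is 65.2% of the 23 that fell and 51.7% of the 29 that rose. These 2 comparisons share no library, but the fit took the spread of each gene from all 8 libraries, so their calls are not independent. Over all genes, 500 (3.61%) followed this pattern. The 15 genes were *MCM2*, *MCM3*, *MCM4*, *MCM5*, *MCM6*, *POLA2*, *POLD3*, *POLE*, *RFC2*, *FEN1*, *UNG*, *CHAF1B*, *E2F1*, *E2F8* and *CLSPN*. In a direct test of the difference between the responses (DCIS.COM minus MCF10A), 32 of the 47 genes were called with a more positive response in DCIS.COM and 0 with a more negative one, while 15.6% of all genes were called in the first direction and 20.3% in the second. At an unadjusted p below 0.05, 41 genes had a more positive response in DCIS.COM and 0 a more negative one, and limma-voom called 34 and 0. The median difference was 0.41 on the log2 scale over the 47 genes and -0.01 over all genes, and 44 of the 47 differences were positive. Those of *E2F8*, *E2F1* and *CLSPN* exceeded 2-fold, as did 9.2% of all genes.

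**Figure D1:**
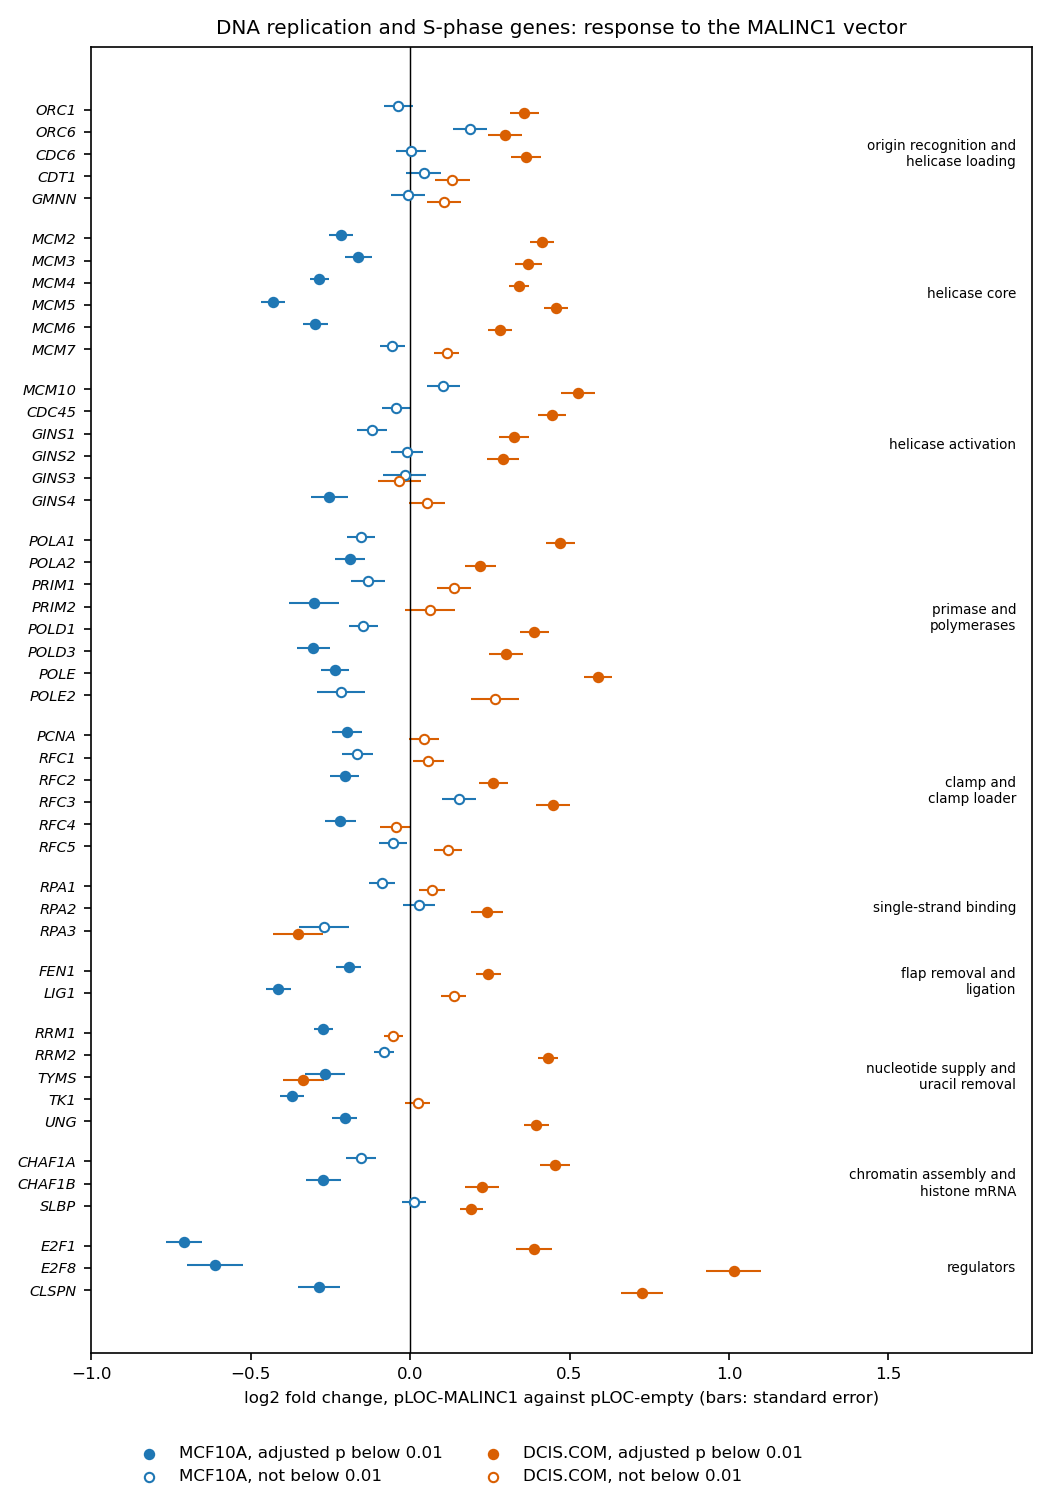
Log2 fold change of pLOC-*MALINC1* against pLOC-empty (x axis) for each of the 47 genes (y axis, grouped by role) in MCF10A (blue) and DCIS.COM (orange), with bars for the standard error and filled points for an adjusted p below 0.01. Most blue points lie to the left of 0 and most orange points to the right, while *RPA3*, *TYMS*, *RRM1*, *RFC4* and *GINS3* lie to the left in both lines, with filled points in DCIS.COM for *RPA3* and *TYMS*.

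The 23 calls in MCF10A were the less stable of these counts. Leaving out replicate 2 of pLOC-empty, replicate 2 of pLOC-*MALINC1* or replicate 1 of pLOC-*MALINC1* in MCF10A left 10, 12 and 15 genes lower, and 0 higher in each case. A total of 9 genes stayed lower in MCF10A under all 23 alternatives tried (*MCM4*, *MCM5*, *MCM6*, *POLD3*, *LIG1*, *RRM1*, *TK1*, *E2F1* and *E2F8*), and 20 stayed higher in DCIS.COM. Of the 15 genes called in opposite directions, *MCM4*, *MCM5*, *MCM6*, *E2F1* and *E2F8* kept both calls under all 23 alternatives. The least stable of the other calls were those of *MCM3* in MCF10A (16 of 23 alternatives) and *CHAF1B* in DCIS.COM (16 of 23). The difference between the lines was called for 24 genes under all 22 alternatives. Among these alternatives, the fit without a filter repeated the reported fit, since the filter had removed no gene. The scaling between libraries moved the counts as well, in 3 alternatives chosen after the data were seen. With *RN7SL1* and *RN7SL2* left out of the library totals and the authors' scaling factors kept, 27 genes were lower in MCF10A, 25 were higher in DCIS.COM and 28 differed between the lines. With plain library totals and no scaling factors the counts were 23, 37 and 41, and with both changes together 29, 32 and 40. The factors ran from 0.945 to 0.963 in MCF10A, from 0.996 to 1.02 in DCIS.COM pLOC-empty and from 1.076 to 1.107 in DCIS.COM pLOC-*MALINC1*.

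The 3 regulators had the largest differences between the responses of the 2 lines. *E2F1* is a transcriptional activator of S-phase genes and lies on chromosome 20 from 32263283 to 32274191 on the minus strand in GRCh37 (hg19). In MCF10A it had 51.1 and 54.9 CPM with pLOC-empty and 32.0 and 32.8 CPM with pLOC-*MALINC1*. In DCIS.COM it had 16.2 and 16.1 CPM with pLOC-empty and 21.3 and 21.0 CPM with pLOC-*MALINC1*. No library of one vector overlapped with those of the other in either line, and the MCF10A libraries were all above the DCIS.COM ones. The fall in MCF10A was 1.63-fold, a log2 fold change of -0.71 (SE 0.055, adjusted p = 5.59e-07), and the rise in DCIS.COM was 1.31-fold, a log2 fold change of 0.39 (SE 0.055, adjusted p = 0.000114). The responses differed by 1.10 (SE 0.078, adjusted p = 2.79e-07).

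*E2F8*, an atypical E2F that represses E2F targets later in S phase, lies on chromosome 11 from 19245610 to 19263167 on the minus strand. It had 32.0 and 32.1 CPM with pLOC-empty and 20.9 and 21.0 CPM with pLOC-*MALINC1* in MCF10A. Its levels in DCIS.COM were 3.78 and 4.34 CPM and 8.48 and 8.04 CPM, the lowest of all 47 genes. The gene fell 1.53-fold in MCF10A (log2 fold change -0.61, SE 0.087, adjusted p = 9.27e-05) and rose 2.02-fold in DCIS.COM (log2 fold change 1.01, SE 0.087, adjusted p = 1.57e-06), and the difference of 1.63 (SE 0.12, adjusted p = 4.77e-07) was the largest among the 47 genes. *CLSPN* encodes claspin, an adaptor of the replication checkpoint kinase CHK1 that travels with the fork, and lies on chromosome 1 from 36185819 to 36235579 on the minus strand. In MCF10A it had 95.6 and 97.9 CPM with pLOC-empty and 84.6 and 74.5 CPM with pLOC-*MALINC1*, and in DCIS.COM 44.4 and 39.5 CPM and 67.3 and 71.6 CPM. It was lower in MCF10A by a log2 fold change of -0.29 (SE 0.065, adjusted p = 0.00293) and higher in DCIS.COM by 0.73 (SE 0.065, adjusted p = 2.26e-06). The call in MCF10A held under 18 of 23 alternatives and that in DCIS.COM under 23 of 23. The vector groups did not overlap in either line, and the widest spread between replicates was that of MCF10A pLOC-*MALINC1* (SD 7.17 CPM).

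**Figure D2:**
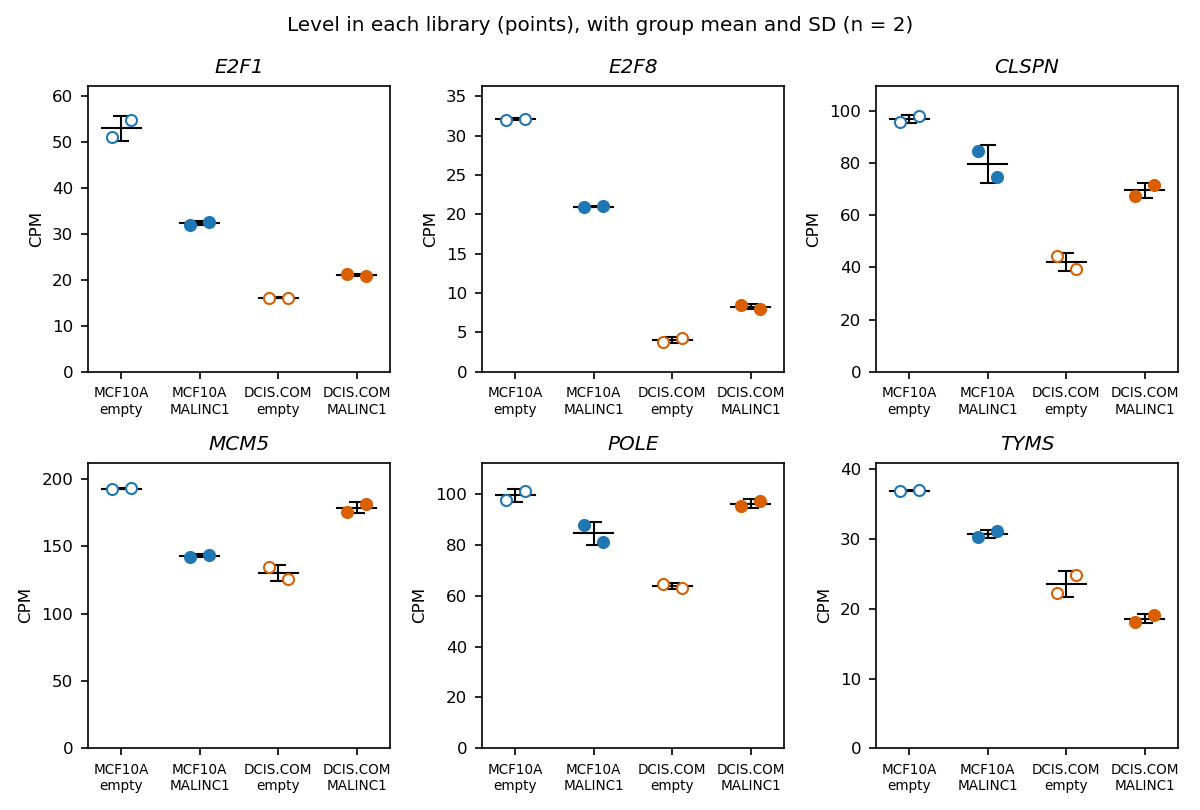
Level in CPM (y axis, from 0) of 6 genes in each of the 8 libraries (points; open for pLOC-empty, filled for pLOC-*MALINC1*), with the mean and SD of each group of 2 libraries. *E2F1*, *E2F8*, *CLSPN*, *MCM5* and *POLE* were lower with pLOC-*MALINC1* in MCF10A but higher in DCIS.COM, while *TYMS* was lower with pLOC-*MALINC1* in both lines.

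The promoters of several of these genes carry the letters of E2F sites, and 6 of them are shown because E2F factors are the known regulators of this gene group and *E2F1* and *E2F8* were themselves among the genes that moved most. RefSeq promoter sequences (table built on GRCh38.p14; 250 bases before to 50 after the start of the gene) were found for 40 of the 47 genes and not for *MCM4*, *MCM5*, *GINS4*, *POLD3*, *RPA2*, *RPA3* and *E2F8*. They were searched on both strands for TTTCCCGC, TTTCGCGC, TTTGCCGC and TTTGGCGC, the 4 spellings of the E2F letters used here. At least 1 match was present in 19 of the 40 promoters (47.5%), in 14 of 52 promoters (26.9%) of other replication genes, in 2 of 30 (6.67%) of mitosis genes, and in 579 of 10497 (5.52%) of all tested genes. The windows shown are those of the genes with the largest difference between the responses of the 2 lines among genes with a match. Each is written in the direction of the gene, with up to 30 bases on either side of the matches, the matched letters in capitals, and coordinates in GRCh37, where every sequence was found at a single place.
*E2F1*, chr20:32274174-32274254, minus strand: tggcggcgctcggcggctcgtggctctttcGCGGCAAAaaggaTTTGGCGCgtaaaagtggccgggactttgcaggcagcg
*CLSPN*, chr1:36235560-36235614, minus strand: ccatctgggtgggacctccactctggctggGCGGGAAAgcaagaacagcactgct
*POLE*, chr12:133263909-133263976, minus strand: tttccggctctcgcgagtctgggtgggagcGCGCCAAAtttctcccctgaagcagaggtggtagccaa
*MCM2*, chr3:127317226-127317273, plus strand: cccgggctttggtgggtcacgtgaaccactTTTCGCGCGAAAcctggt
*POLA1*, chrX:24711868-24711935, plus strand: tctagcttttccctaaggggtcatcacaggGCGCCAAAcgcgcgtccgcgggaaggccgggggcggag
*MCM6*, chr2:136634062-136634195, minus strand: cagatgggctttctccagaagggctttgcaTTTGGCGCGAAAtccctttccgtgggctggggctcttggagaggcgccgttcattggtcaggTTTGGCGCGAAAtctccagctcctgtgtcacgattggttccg

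The window of *E2F1* held 2 separate matches. In *MCM2* and in both runs of *MCM6*, the capitals hold 2 matches each that overlap on opposite strands, so *MCM6* counted 4. The difference between the vector responses had a median of 0.45 over the 19 genes with a match, of which 15 were called, and of 0.39 over the 21 without, of which 12 were called. Both groups thus held called genes. Of the other motifs searched, CCAAT was present in 57.5% of the 40 promoters against 37.1% of all, and TTTGAA, the letters of the cell-cycle homology region of mitotic promoters, in 2.5% against 10.1%, while 73.3% of mitosis genes held it. A match describes letters and not a bound site, and a promoter without a match lacks only these letters in this window.

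Among the helicase loaders, *ORC1* and *ORC6* encode subunits of the origin recognition complex, *CDC6* and *CDT1* bring the MCM ring to it, and *GMNN* encodes geminin, the inhibitor of *CDT1*. None of the 5 was called in MCF10A, where log2 fold changes ran from -0.04 (*ORC1*) to 0.19 (*ORC6*). In DCIS.COM the genes *ORC1*, *ORC6* and *CDC6* were higher with pLOC-*MALINC1*, with log2 fold changes of 0.36 ± 0.045, 0.30 ± 0.054 and 0.36 ± 0.046 (± SE; adjusted p = 4.1e-05, 0.000694 and 4.47e-05 in limma). *CDT1* (0.13 ± 0.056) and *GMNN* (0.11 ± 0.053) were not called in either line. The difference between the lines was called for *ORC1* (0.39 ± 0.064) and *CDC6* (0.36 ± 0.066). Of the 5 genes, 60% were thus called higher in DCIS.COM and 40% in the difference, beside 16.4% and 15.6% of all genes.

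Of the 6 subunits of the helicase ring, *MCM2* to *MCM7*, all but *MCM7* were called lower in MCF10A, higher in DCIS.COM and different between the lines. That is 83.3% of the 6 in each comparison, beside 18.1%, 16.4% and 15.6% of all genes in the same order. *MCM5* changed most, with 192 and 193 CPM with pLOC-empty and 142 and 144 CPM with pLOC-*MALINC1* in MCF10A, against 135 and 126 CPM and 176 and 181 CPM in DCIS.COM. Its log2 fold changes were -0.43 (SE 0.037, adjusted p = 1.36e-06) and 0.46 (SE 0.037, adjusted p = 1e-06), and they differed by 0.89 (SE 0.053, adjusted p = 4.99e-08). In DCIS.COM the pLOC-*MALINC1* libraries thus came close to the pLOC-empty libraries of MCF10A without reaching them.

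*MCM2* had 171 and 177 CPM with pLOC-empty and 147 and 151 CPM with pLOC-*MALINC1* in MCF10A, and 268 and 249 CPM and 342 and 347 CPM in DCIS.COM, and was the subunit that was higher in DCIS.COM with either vector. *MCM3* went from 230.0 and 244 CPM to 206 and 217 CPM in MCF10A and from 183 and 170.2 CPM to 227 and 229.6 CPM in DCIS.COM. *MCM4* went from 364 and 363 CPM to 296 and 301 CPM in MCF10A and from 239 and 234 CPM to 296 and 304 CPM in DCIS.COM, where the pLOC-*MALINC1* libraries lay at the level of the pLOC-*MALINC1* libraries of MCF10A. *MCM6* went from 189 and 199.8 CPM to 158 and 159 CPM in MCF10A and from 84.4 and 88.0 CPM to 106 and 103 CPM in DCIS.COM, below every MCF10A library. For these 4 subunits the libraries of the 2 vectors did not overlap in either line. Their log2 fold changes in MCF10A ran from -0.30 (*MCM6*, adjusted p = 3.86e-05) to -0.16 (*MCM3*, adjusted p = 0.0073), and in DCIS.COM from 0.28 (*MCM6*, adjusted p = 7.12e-05) to 0.41 (*MCM2*, adjusted p = 2.9e-06), all from limma. *MCM7* had log2 fold changes of -0.06 ± 0.039 and 0.11 ± 0.039 and passed the test in neither line, and the difference of 0.17 ± 0.056 was not called either (adjusted p = 0.023 in limma).

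Levels per kilobase of annotated exons allow a rough comparison between genes. The 6 MCM subunits had mean levels between 26.5 (*MCM5*) and 65.0 CPM per kb (*MCM3*) in MCF10A pLOC-empty. In DCIS.COM pLOC-*MALINC1* they had between 24.6 (*MCM5*) and 73.1 CPM per kb (*MCM2*). *MCM2* stood next to the lowest in the first of these groups, at 36.8 CPM per kb beside 36.9 for *MCM4*, and first in the second. Over all 47 genes *PCNA* had the highest level per kb in every group, from 105 CPM per kb in DCIS.COM pLOC-empty to 203 in MCF10A pLOC-empty. The lowest was *E2F8* in DCIS.COM, with 0.982 CPM per kb with pLOC-empty, and *POLA1* in MCF10A, with 3.62 and 3.26 CPM per kb. Exon lengths were those of all annotated exons of a gene merged, for example 15547 bases for *POLA1* and 1403 for *PCNA*. They may differ from those of the gene models that were counted, and the order of the genes depends on them.

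The activators of the helicase were *MCM10* and *CDC45* and the GINS subunits *GINS1* to *GINS4*. In MCF10A 1 of these 6 (16.7%) was called lower, which is near the 18.1% of all genes. In DCIS.COM 4 (66.7%) were called higher, beside 16.4% of all genes. *MCM10*, which is needed for the loaded helicase to start unwinding, had 68.2 and 74.6 CPM with pLOC-empty and 77.7 and 75.7 CPM with pLOC-*MALINC1* in MCF10A. In DCIS.COM it rose from 46.4 and 47.6 CPM to 64.9 and 70.6 CPM, a log2 fold change of 0.53 (SE 0.052, adjusted p = 5.61e-06). The MCF10A change of 0.10 ± 0.052 was not called, so the difference of 0.42 ± 0.074 (adjusted p = 0.00052 in limma) came with a response called in 1 line. *CDC45*, *GINS1* and *GINS2* followed the same pattern, with DCIS.COM log2 fold changes of 0.45 ± 0.044, 0.33 ± 0.047 and 0.29 ± 0.050. *GINS4* was instead lower in MCF10A (-0.25 ± 0.057, adjusted p = 0.00262 in limma) and had 0.05 ± 0.057 in DCIS.COM. *GINS3* was called in neither line (-0.02 and -0.03).

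All 8 genes of primase and the replicative polymerases had negative log2 fold changes in MCF10A and positive ones in DCIS.COM. In MCF10A 4 (50%) were called lower and in DCIS.COM 5 (62.5%) higher, beside 18.1% and 16.4% of all genes. *POLE*, the catalytic subunit of the leading-strand polymerase epsilon, had 97.6 and 101 CPM with pLOC-empty and 87.8 and 81.3 CPM with pLOC-*MALINC1* in MCF10A. In DCIS.COM it had 64.7 and 63.1 CPM and then 95.1 and 97.4 CPM, so that its pLOC-*MALINC1* libraries were near the pLOC-empty libraries of MCF10A. The log2 fold changes were -0.23 (SE 0.043, adjusted p = 0.000683) and 0.59 (SE 0.043, adjusted p = 4.01e-07), with a difference of 0.83 (SE 0.062, adjusted p = 4e-07).

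*POLA1*, the catalytic subunit of polymerase alpha, which extends the primers, had 56.1 and 56.5 CPM with pLOC-empty and 51.5 and 49.7 CPM with pLOC-*MALINC1* in MCF10A (log2 fold change -0.15, adjusted p = 0.0118, not called). It rose from 40.9 and 42.0 CPM to 56.0 and 59.0 CPM in DCIS.COM, a log2 fold change of 0.47 (SE 0.044, adjusted p = 3.47e-06). Its accessory subunit *POLA2* went from 47.8 and 50.3 CPM to 43.2 and 42.8 CPM in MCF10A and from 37.3 and 35.8 CPM to 43.1 and 42.0 CPM in DCIS.COM, with both changes called at -0.19 and 0.22 (log2). The subunit of polymerase delta *POLD3* went from 46.2 and 47.9 CPM to 37.6 and 38.6 CPM in MCF10A and from 27.9 and 30.3 CPM to 35.9 and 35.9 CPM in DCIS.COM. It changed in opposite directions, by -0.30 ± 0.052 and 0.30 ± 0.052 on the log2 scale. *POLD1*, the catalytic subunit of polymerase delta, was called in DCIS.COM (0.39 ± 0.045, adjusted p = 1.97e-05 in limma) and not in MCF10A (-0.15 ± 0.045). *PRIM2*, the large primase subunit, had 29.2 and 30.5 CPM with pLOC-empty and 24.9 and 23.5 CPM with pLOC-*MALINC1* in MCF10A and fell at a log2 fold change of -0.30 (SE 0.077, adjusted p = 0.00583), and had overlapping vector groups in DCIS.COM (24.7 and 20.9 CPM and 23.2 and 24.3 CPM). *PRIM1*, the catalytic primase subunit, and *POLE2*, an accessory subunit of polymerase epsilon, were called in neither line, although the difference between the lines was called for *POLE2* (0.48 ± 0.11, adjusted p = 0.00243 in limma).

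Of the clamp and the clamp loader, 3 of 6 genes (50%) fell in MCF10A and 2 (33.3%) rose in DCIS.COM, beside 18.1% and 16.4% of all genes. *PCNA*, the sliding clamp, was lower in MCF10A (-0.20 ± 0.047, adjusted p = 0.00345 in limma) and had 0.04 ± 0.047 in DCIS.COM (adjusted p = 0.478). Of the 5 subunits of the loader, *RFC2* went from 72.7 and 74.3 CPM to 64.2 and 63.3 CPM in MCF10A and from 66.0 and 60.7 CPM to 74.3 and 77.5 CPM in DCIS.COM, both called, at -0.21 and 0.26 (log2). *RFC3* had 44.1 and 43.3 CPM and 48.4 and 48.7 CPM in MCF10A, a positive change that was not called (0.15, adjusted p = 0.0306), and rose from 42.7 and 39.0 CPM to 53.7 and 57.8 CPM in DCIS.COM (0.45, adjusted p = 2.63e-05). *RFC4* was lower in MCF10A (-0.22 ± 0.049) and had -0.04 ± 0.049 in DCIS.COM, while *RFC1* and *RFC5* were called in neither line. The single-strand binding subunits *RPA1*, *RPA2* and *RPA3* gave 1 rise and 1 fall in DCIS.COM (33.3% each), beside 16.4% and 16.7% of all genes. *RPA2* rose in DCIS.COM (0.24 ± 0.050, adjusted p = 0.00172 in limma), *RPA1* was called in neither line, and *RPA3* fell in DCIS.COM.

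*RPA3* and *TYMS* were the only members called lower in DCIS.COM. *RPA3* had 28.4 and 31.9 CPM with pLOC-empty and 22.1 and 25.1 CPM with pLOC-*MALINC1* in DCIS.COM, a log2 fold change of -0.35 (SE 0.079, adjusted p = 0.00318). Its MCF10A libraries had 30.4 and 29.3 CPM and 23.5 and 26.0 CPM, and that change of -0.27 ± 0.079 was not called (adjusted p = 0.0125 in limma). *TYMS*, which makes thymidylate for DNA synthesis, had 36.9 and 37.0 CPM and 30.3 and 31.1 CPM in MCF10A and 22.2 and 24.8 CPM and 18.1 and 19.1 CPM in DCIS.COM. It was called lower in both lines, at -0.27 (SE 0.064, adjusted p = 0.00378) and -0.33 (SE 0.064, adjusted p = 0.000977), and the 2 changes differed by -0.07 ± 0.090 (adjusted p = 0.558 in limma). Both calls in DCIS.COM were lost without replicate 2 of pLOC-empty, without replicate 1 of pLOC-*MALINC1*, and with plain library totals. In the annotation, 967 exon bases of *TYMS* (39.9%) lie opposite exons of *ENOSF1* and 193 (7.97%) opposite *TYMSOS*. The strand setting of the read counting was not given in the sources used here, so reads from *TYMS* and from these antisense genes cannot be told apart. In the other members with overlapping exons, at most 7.90% of exon bases were shared with another gene (*MCM7*, with *AP4M1*).

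The other genes of nucleotide supply fell in MCF10A or rose in DCIS.COM. *RRM1* and *RRM2* encode the large and the small subunit of ribonucleotide reductase. *RRM1* was lower in MCF10A (-0.27 ± 0.030, adjusted p = 1.13e-05 in limma) and had -0.05 ± 0.030 in DCIS.COM, while *RRM2* was higher in DCIS.COM (0.43 ± 0.032, adjusted p = 4.24e-07) and had -0.08 ± 0.032 in MCF10A. The 2 subunits of the same enzyme were thus called in different lines, and for both the difference between the lines was called (0.22 and 0.51). *TK1*, the thymidine salvage kinase, had 121 and 120.3 CPM with pLOC-empty and 90.6 and 96.6 CPM with pLOC-*MALINC1* in MCF10A and fell there, with a log2 fold change of -0.37 (SE 0.039, adjusted p = 6.94e-06). In DCIS.COM its libraries held 119 and 119.9 CPM and 119 and 124 CPM and overlapped. *UNG*, which removes uracil from DNA, went from 70.1 and 72.1 CPM to 62.0 and 61.3 CPM in MCF10A and from 75.4 and 71.7 CPM to 96.7 and 96.7 CPM in DCIS.COM, at -0.21 (SE 0.039, adjusted p = 0.000859) and 0.39 (SE 0.039, adjusted p = 5.46e-06).

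In the joining of Okazaki fragments, *FEN1* cuts the displaced flap and *LIG1* seals the nick. *FEN1* went from 149 and 157 CPM to 132 and 135 CPM in MCF10A and from 117 and 111 CPM to 133 and 137 CPM in DCIS.COM, with both changes called at -0.19 and 0.25 (log2). *LIG1* fell from 83.7 and 80.3 CPM to 61.7 and 61.5 CPM in MCF10A, a log2 fold change of -0.41 (SE 0.040, adjusted p = 3.46e-06). Its DCIS.COM libraries held 82.0 and 79.3 CPM and 86.9 and 90.4 CPM, which did not overlap but missed the threshold (adjusted p = 0.0142 in limma). *CHAF1A* and *CHAF1B* encode subunits of the chromatin assembly factor that deposits histones behind the fork. *CHAF1A* rose from 54.8 and 53.1 CPM to 73.7 and 74.2 CPM in DCIS.COM (0.45, adjusted p = 7.96e-06) and had 64.3 and 69.8 CPM and 61.6 and 58.7 CPM in MCF10A (-0.16, adjusted p = 0.0149). *CHAF1B* went from 40.0 and 43.1 CPM to 35.5 and 33.4 CPM in MCF10A and from 31.2 and 30.9 CPM to 36.2 and 36.4 CPM in DCIS.COM, both called. *SLBP*, which binds the stem-loop of histone mRNAs, was higher in DCIS.COM (0.19 ± 0.037, adjusted p = 0.00104 in limma) and had 0.01 ± 0.037 in MCF10A.

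**Figure D3:**
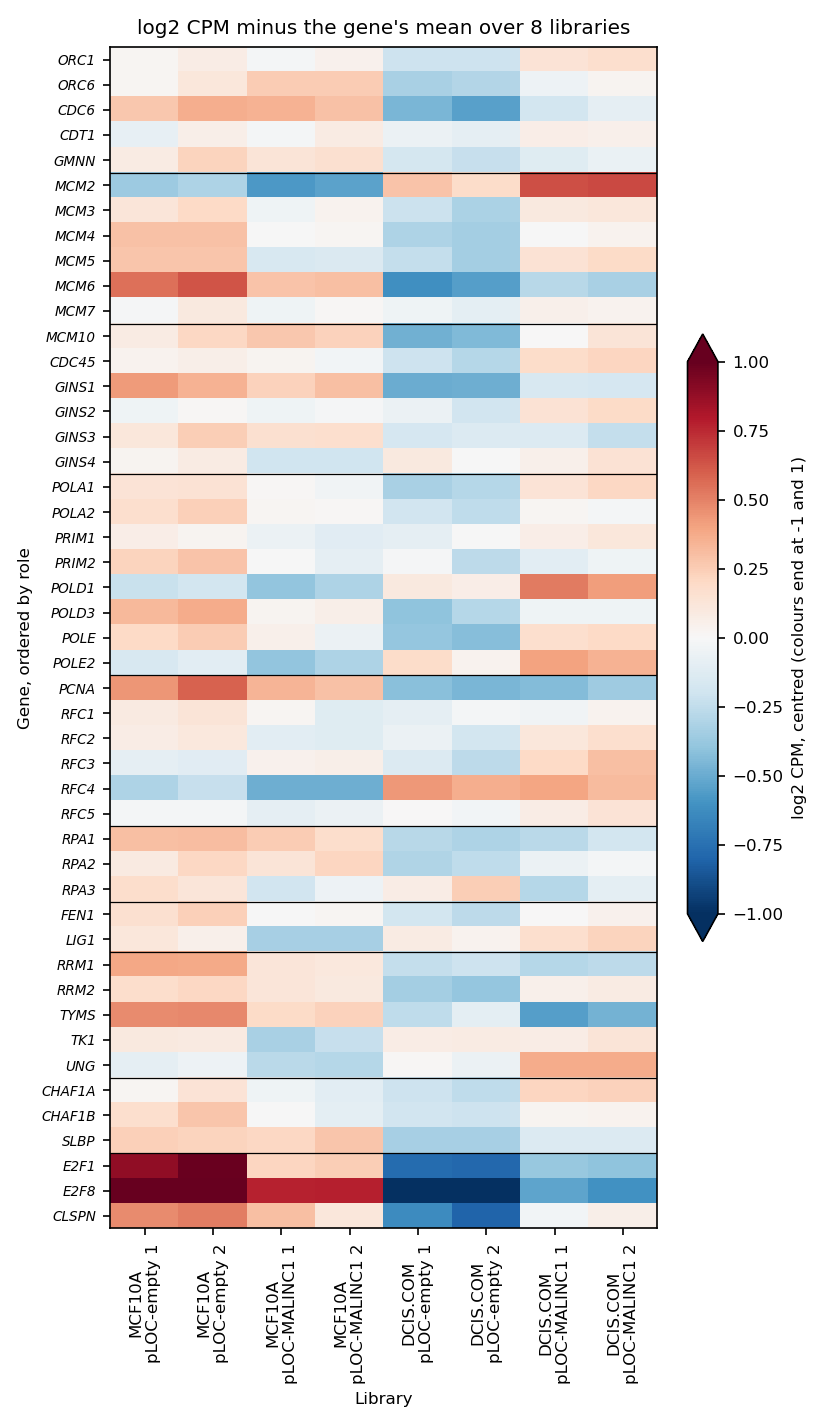
Log2 CPM of each of the 47 genes (rows, ordered by role) in each of the 8 libraries (columns), minus the mean of that gene over the 8 libraries; red is above that mean, blue below, and the colours end at -1 and 1. The 2 libraries of DCIS.COM pLOC-empty are blue for most genes, and the 2 libraries of each group look alike.

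The 2 lines also differed in most of these genes with the empty vector. With pLOC-empty, 32 of the 47 genes were lower in DCIS.COM than in MCF10A and 3 were higher (*MCM2*, *POLD1* and *RFC4*), while 36% of all genes were called lower and 37.9% higher. The median log2 difference was -0.39 over the 47 genes and 0.03 over all genes. Over 2-fold, 4 genes were lower and 0 higher, at *E2F8* (7.79-fold lower, log2 difference -2.96, SE 0.087, adjusted p = 6.82e-12), *E2F1* (3.27-fold, -1.71, SE 0.055, adjusted p = 1.63e-11), *CLSPN* (2.31-fold, -1.20, SE 0.065, adjusted p = 2.29e-09) and *MCM6* (2.26-fold, -1.17, SE 0.038, adjusted p = 1.65e-11), while 28.6% of all genes were called with a difference of that size. The largest positive differences were those of *RFC4* (0.67 ± 0.049) and *MCM2* (0.57 ± 0.038). DCIS.COM pLOC-empty was the group with the lowest mean level for 33 of the 47 genes, a count that was not made over all genes. Its libraries enter both this line comparison and the vector response in DCIS.COM, so the 2 results are not independent.

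With pLOC-*MALINC1* in both lines, 18 genes were higher in DCIS.COM and 15 were lower, beside 35.7% and 37.2% of all genes. The median log2 difference was 0.03 over the 47 genes and 0.01 over all genes. Over 2-fold, *MCM2* was higher (log2 difference 1.20, SE 0.038, adjusted p = 1.62e-11) and *E2F8* lower (-1.34, SE 0.087, adjusted p = 1.66e-08), while 26.6% of all genes were called with such a difference. The split of 18 and 15 depended on the scaling between libraries and was 26 and 11 with quantile normalization, 25 and 11 with upper quartile scaling, and 28 and 10 with plain library totals and no scaling factors. Leaving *RN7SL1* and *RN7SL2* out of the totals with the scaling factors kept gave 16 and 15. The median difference over all genes was itself shifted, by 0.11 with upper quartile scaling and by 0.20 with plain totals. Without replicate 2 of DCIS.COM pLOC-*MALINC1* it was 11 and 15, and without replicate 2 of MCF10A pLOC-*MALINC1* 12 and 13.

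**Figure D4:**
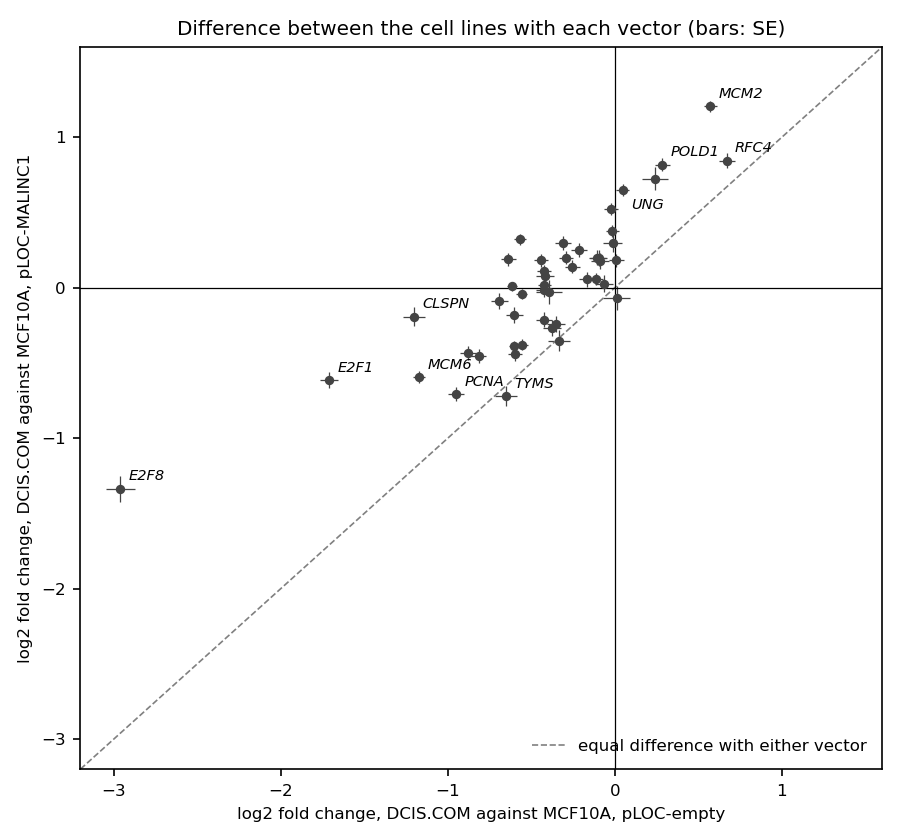
Log2 difference between DCIS.COM and MCF10A for each of the 47 genes with pLOC-empty (x axis) and with pLOC-*MALINC1* (y axis), with bars for the standard error and a dashed line where both differences are equal. Of the 47 points 44 lie above the dashed line, with *E2F8*, *E2F1* and *CLSPN* farthest from it, and *TYMS* and *RPA3* are among the 3 below. The vertical distance from the line equals the difference between the vector responses by construction, so the plot shows that result again.

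The size of the line difference, regardless of its sign, was smaller with pLOC-*MALINC1* than with pLOC-empty for 31 of the 47 genes. This count was not made over all genes. The median size went from 0.42 to 0.24 on the log2 scale, beside 0.56 and 0.52 over all genes. For *MCM4* the difference went from -0.62 ± 0.031 to 0.01 ± 0.031, for *RRM2* from -0.56 ± 0.032 to -0.04 ± 0.032, and for *FEN1* from -0.42 ± 0.039 to 0.01 ± 0.039. It became larger in the other 16 genes. *MCM2* and *UNG*, for example, were further above MCF10A with pLOC-*MALINC1* (1.20 ± 0.038 and 0.65 ± 0.039) than with pLOC-empty (0.57 ± 0.038 and 0.05 ± 0.039). *PCNA* kept a called difference with both vectors, at -0.95 ± 0.047 and -0.71 ± 0.047, and so did *E2F1* and *E2F8*. For each gene, the signed change of the line difference between the vectors equals the difference between the vector responses given above. It is the same contrast and adds no separate evidence.

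Other genes of the pathway, 62 in all, were counted in the same way. In MCF10A, 15 (24.2%) were higher and 21 (33.9%) lower with pLOC-*MALINC1* (median log2 fold change -0.06), beside 21.5% and 18.1% of all genes. In DCIS.COM, 29 (46.8%) were higher and 4 (6.45%) lower (median 0.19), beside 16.4% and 16.7% of all genes. The difference between the lines was called for 29 genes (46.8%) with a more positive and 6 (9.68%) with a more negative response in DCIS.COM. Over all genes these shares were 15.6% and 20.3%. The one change over 2-fold was that of *E2F5*, a repressive E2F, which had 3.76 and 3.06 CPM with pLOC-empty and 7.38 and 7.40 CPM with pLOC-*MALINC1* in MCF10A (log2 fold change 1.11, SE 0.14, adjusted p = 3.43e-05). In DCIS.COM it had 7.79 and 9.69 CPM and 6.61 and 5.94 CPM, a change of -0.47 ± 0.14 that was not called, and its responses differed by -1.58 (SE 0.20, adjusted p = 3.72e-05), in the direction opposite to *E2F1* and *E2F8*.

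The next genes were chosen after their values were seen. *E2F2*, an activating E2F like *E2F1*, had 40.0 and 43.6 CPM and 44.1 and 40.0 CPM in MCF10A and rose from 13.3 and 11.5 CPM to 24.6 and 24.1 CPM in DCIS.COM (log2 fold change 0.98, SE 0.078, adjusted p = 8.68e-07). The E-type cyclin *CCNE2* was lower in MCF10A (-0.31 ± 0.065) but higher in DCIS.COM (0.60 ± 0.065), as were *FBXO5*, which encodes an inhibitor of the anaphase-promoting complex (-0.43 ± 0.057 and 0.51 ± 0.057), and the fork factor *DONSON* (-0.37 ± 0.060 and 0.52 ± 0.060). All 6 of these changes were called by limma. *RRM2B*, the small ribonucleotide reductase subunit induced by p53, went the other way in DCIS.COM, from 82.6 and 81.1 CPM to 47.3 and 47.4 CPM (-0.79, SE 0.051, adjusted p = 1.29e-07).

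In a list of 36 mitosis genes, nearly all calls were lower in both lines. In MCF10A, 18 (50%) were lower and 1 (2.78%) was higher (*MAD2L1*, a spindle checkpoint gene, 0.22 ± 0.051), with a median of -0.17. Over all genes 18.1% were lower and 21.5% higher. In DCIS.COM, 21 (58.3%) were lower and 1 (2.78%) was higher (*MKI67*, the proliferation marker, 0.24 ± 0.038), with a median of -0.21. Over all genes 16.7% were lower and 16.4% higher. The summed level of these 36 genes in DCIS.COM was 5064 and 5160 CPM with pLOC-empty and 4225 and 4370 CPM with pLOC-*MALINC1*, while that of the 47 replication genes was 3676 and 3575 CPM and then 4331 and 4420 CPM. In MCF10A both sums were lower with pLOC-*MALINC1*: from 7034 and 6671 CPM to 5840 and 6096 CPM for mitosis and from 4724 and 4886 CPM to 4254 and 4254 CPM for replication. The difference between the lines was called in both directions in the mitosis list, for 8 genes (22.2% of 36) with a more positive and 12 (33.3%) with a more negative response in DCIS.COM, beside 15.6% and 20.3% of all genes.

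**Figure D5:**
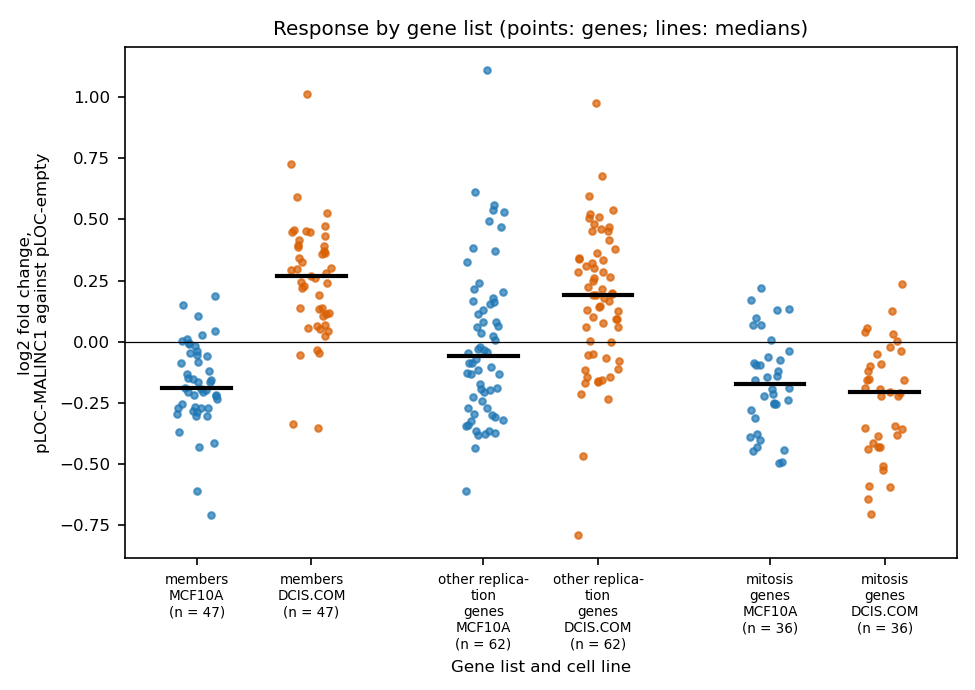
Log2 fold change of pLOC-*MALINC1* against pLOC-empty (y axis) for each gene (points) of 3 lists in each cell line (x axis), with the median of each list as a line. The medians of the 47 replication genes are -0.19 in MCF10A and 0.27 in DCIS.COM, and those of the mitosis genes are -0.17 and -0.21.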

How the data were processed

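RNA-seq libraries of 2 cell lines with 2 vectors (4 groups of 2) were compared. Per the study's methods and the submitters' processing notes, 76 nt paired-end reads were aligned to hg19, counted per gene with featureCounts and normalized with edgeR. The values deposited by the authors are log2 CPM with a scaled prior count. Aligner settings and the strand setting are not given in the sources used here. Whole reads (tolerance 0.05) were recovered for 100% of values, and the printed CPM are free of the prior.

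A minimum of 0.5 CPM in 2 libraries kept all 13842 genes. Their log2 CPM went into limma 3.58.1 (R 4.3.3) with 4 group means, contrasts and eBayes with a trend. Tests were two-sided, with Benjamini-Hochberg over all genes. A trial on simulated data was required to recover only changes of 2-fold or more. Such changes are larger than the vector responses of all members but *E2F8*, so the trial does not bear on those calls. A call is an adjusted p below 0.01, as in the study's methods, which also asked for a change over 2-fold. An exact permutation test of 2 against 2 libraries cannot go below p = 0.333 and was not used. The genes, lists and alternatives were chosen with earlier results of these data known, so no test of a list was run. Values in every library are given for the 8 called genes with the largest changes in each line, the 6 with the largest difference between lines, those over 2-fold between lines, those called in opposite directions, and those that stood apart. Alternatives changed the offset, filter, scaling, model and libraries. Gene positions are from GENCODE on GRCh37. Python 3.11.15, pandas 2.3.3 and matplotlib 3.10.9 were used for tables and plots.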

Additional observations from a re-analysis of the deposited data

Results flagged for a closer look

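For 32 of the 47 genes the response to pLOC-*MALINC1* differed between the cell lines in the limma test of the difference itself, and all 32 differences, given here as the log2 fold change in DCIS.COM minus that in MCF10A, were positive. Among the regulators they were 1.63 for *E2F8*, 1.10 for *E2F1* and 1.01 for *CLSPN*. Among the helicase subunits they were 0.89 for *MCM5*, 0.63 for *MCM2*, 0.63 for *MCM4*, 0.58 for *MCM6* and 0.53 for *MCM3*, among the helicase loaders 0.39 for *ORC1* and 0.36 for *CDC6*, and among the helicase activators 0.49 for *CDC45*, 0.45 for *GINS1*, 0.42 for *MCM10*, 0.31 for *GINS4* and 0.30 for *GINS2*. The polymerase genes had differences of 0.83 for *POLE*, 0.62 for *POLA1*, 0.60 for *POLD3*, 0.54 for *POLD1*, 0.48 for *POLE2* and 0.41 for *POLA2*. The clamp and its loader had 0.47 for *RFC2*, 0.30 for *RFC3* and 0.24 for *PCNA*. Flap removal and ligation had 0.55 for *LIG1* and 0.44 for *FEN1*, nucleotide supply and uracil removal 0.60 for *UNG*, 0.51 for *RRM2*, 0.39 for *TK1* and 0.22 for *RRM1*, and chromatin assembly 0.61 for *CHAF1A* and 0.50 for *CHAF1B*. In MCF10A and DCIS.COM 15 of these 32 genes changed in opposite called directions. Of the 15, *MCM4*, *MCM5*, *MCM6*, *E2F1* and *E2F8* kept both calls under all alternatives. The share of reads taken by *RN7SL1* and *RN7SL2* was lower with pLOC-*MALINC1* in both lines. It went from 13.2% and 12.3% to 10.4% and 11.7% in MCF10A and from 15.7% and 14.0% to 11.5% and 8.22% in DCIS.COM. With these RNAs left out of the library totals and the authors' scaling factors kept, an alternative chosen after the data were seen, the difference was called for 28 genes.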

How the results depend on the processing

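The direction of the counts in the 2 vector comparisons, of the difference between them and of the line difference with pLOC-empty was the same under every alternative run. In MCF10A, the count of higher genes went from 0 to 1 with an offset of 0.5 CPM, an offset of 1 CPM, limma-voom or robust empirical Bayes, and the count of lower genes from 23 to 10 without the mean-variance trend and to 13 with MCF10A fitted alone. In DCIS.COM, the 2 lower genes became 0 without the trend, with DCIS.COM fitted alone or with plain library totals (*RN7SL1* and *RN7SL2* included, no scaling factors). Between the lines, 3 higher genes with pLOC-empty became 5 with upper quartile scaling or with totals without *RN7SL1*, *RN7SL2* and scaling factors, and 18 with pLOC-*MALINC1* became 28 with the latter and 28 with plain totals. The causes were not tested. Shifts over 0.1 in the median of all genes were 0.11 with upper quartile scaling (lines with pLOC-*MALINC1*), 0.10 and 0.18 with totals without *RN7SL1*, *RN7SL2* and scaling factors (lines with pLOC-empty and with pLOC-*MALINC1*), and 0.12, 0.13 and 0.20 with plain totals (DCIS.COM response, difference of the responses, lines with pLOC-*MALINC1*). The alternatives on library totals were chosen after the data were seen.

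Leaving out each library in turn, where the lone library of a group is assumed to vary like the others, gave 10 to 23 lower and 0 to 0 higher genes in MCF10A, 26 to 29 higher and 0 to 2 lower in DCIS.COM, 27 to 32 with a more positive and 0 to 0 with a more negative response in DCIS.COM, 3 to 4 higher and 29 to 32 lower between the lines with pLOC-empty, and 11 to 18 higher and 12 to 15 lower with pLOC-*MALINC1*. In the line comparison with pLOC-*MALINC1*, 3 genes changed sign with a call in the reported or the alternative fit: without scaling factors, the log2 difference was 0.00012 for *MCM10*, 0.17 for *POLA2* and 0.14 for *RRM2* with totals without *RN7SL1* and *RN7SL2*, and 0.019, 0.18 and 0.16 with plain totals, and that of *RRM2* was 0.13 with quantile normalization.

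Libraries with the same number did not deviate together (correlations of their deviations from -0.067 to 0.038), so the numbers were not taken as pairs. The replicate block gave 24 lower genes in MCF10A, 29 higher and 2 lower in DCIS.COM, and 29 with a more positive response in DCIS.COM. Over the 47 genes, the 5 comparisons and all alternatives, 4793 of 5264 single results kept their sign and side of the threshold, 216 lost and 137 gained the call, 7 changed sign with a call, and 111 changed sign with a call in neither fit. Some of these results were the same in advance. The fit without a filter repeated the reported fit, since no gene had been removed. Leaving out a library of the other line could change only the standard error of a vector response. The fewest reads were the 81 of *E2F8* in replicate 1 of DCIS.COM pLOC-empty, and standard errors of a vector response, with 2 libraries per group, ran from 0.030 to 0.087 (*E2F8*).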

Other observations

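Genes that act before replication, the G1 regulators, were counted in the same way. Of 12 such genes 9 were in the table (*CDKN1C*, *CDKN2A* and *CDKN2B* were not). With pLOC-*MALINC1* 4 (44.4%) were higher and 3 (33.3%) lower in MCF10A, beside 21.5% and 18.1% of all genes. In DCIS.COM 4 (44.4%) were higher and 2 (22.2%) lower, beside 16.4% and 16.7% of all genes. The difference between the responses was called for 2 with a more positive and 3 with a more negative response in DCIS.COM, beside 15.6% and 20.3% of all genes. *CDK6*, a kinase that phosphorylates RB in G1, had 105 and 103 CPM with pLOC-empty and 242 and 232 CPM with pLOC-*MALINC1* in MCF10A and rose, with a log2 fold change of 1.19 (SE 0.036, adjusted p = 1.57e-10) in limma. Its inhibitor *CDKN2C* went from 42.0 and 42.6 CPM to 19.9 and 20.9 CPM, a log2 fold change of -1.05 (SE 0.072, adjusted p = 1.74e-07). Both are the G1 genes that changed over 2-fold in MCF10A. In DCIS.COM the log2 fold changes were 0.19 ± 0.036 for *CDK6* and 0.32 ± 0.072 for *CDKN2C*, both called.

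*CDKN1A*, the kinase inhibitor p21, and *CCND1*, cyclin D1, were chosen after their values were seen. *CDKN1A* rose from 129 and 129.6 CPM to 207 and 209.8 CPM in MCF10A and fell from 211 and 203 CPM to 165 and 167 CPM in DCIS.COM, and the responses differed by -1.01 (SE 0.046, adjusted p = 4.39e-09) in limma. *CCND1* rose from 363 and 368 CPM to 542 and 524 CPM in MCF10A and fell from 290.2 and 275 CPM to 221 and 218 CPM in DCIS.COM, with a difference of -0.91 (SE 0.049, adjusted p = 2.06e-08). Both thus moved opposite to *E2F1* in each line. *CCND2* had 0 reads in all 4 MCF10A libraries and 83.2 and 80.8 CPM with pLOC-empty and 124 and 123 CPM with pLOC-*MALINC1* in DCIS.COM.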
